A study of Mus musculus with 6 samples.

Results

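In a 5 µm section of wild-type mouse fetal liver at embryonic day 14.5 (E14.5), 4384 of 117329 segmented cells, or 3.74%, carried at least 8 transcripts of Serpina10, Cp, Hc, Abcb11, Prox1 and Ppargc1a together. These cells, called members below, were taken as the hepatoblasts and hepatocytes of the section. The exact binomial 95% interval of their share was 3.63% to 3.85% and covers counting error only, as do all intervals given here except that of the median cell area. The section came from a formalin-fixed, paraffin-embedded block and was read by Xenium, an imaging assay that decodes single RNA molecules in place with gene-specific probes, here for 477 genes. It was 1 of 6 sections of the study, each from a different tissue or condition, and no treatment was given to it. Of the others, 3 are used once below, wild-type bone marrow at postnatal day 8, wild-type adult spleen, and adult wild-type spleen after repeated intraperitoneal doses of 40 mg/kg phenylhydrazine (PHZ). The mice were C57BL/6, and the number of embryos behind the block is not given in the sources used here. With 1 section and no replicate, no difference was tested, so each comparison below is a description of this section.

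Hepatoblasts are the fetal progenitors of hepatocytes and of bile duct cells. During midgestation they form the epithelial part of the liver and secrete plasma proteins, while blood cells of the red lineage, seeded from elsewhere, fill most of the organ around them. The rule genes belong to that epithelial program. Hc encodes complement component C5, Serpina10 an inhibitor of coagulation factor X, and Cp the copper-carrying ferroxidase ceruloplasmin. Abcb11 is the bile salt export pump, Prox1 a transcription factor of the hepatic epithelium and also of lymphatic vessels, and Ppargc1a a coactivator of mitochondrial and gluconeogenic genes. Alb, Afp and Dlk1, which are commonly used to name hepatoblasts, were not on the panel, and neither were Hnf4a, Cps1 or Glul, so stages of the lineage cannot be told apart with these genes.

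The promoters of Hc, the rule gene with the most counts, and of Gc, a plasma protein gene outside the rule, are shown because both hold the letters of HNF1, a homeodomain factor of the liver. The 250 bases before the start of Hc (chr2:35061413-35061662, minus strand) and of Gc, the vitamin D binding protein (chr5:89457899-89458148, minus strand), are given 5′ to 3′ from RefSeq on build GRCm38.p6. Capitals mark the HNF1 letters, GTTAAT followed by any base and ATTAA, on either strand.
Hc: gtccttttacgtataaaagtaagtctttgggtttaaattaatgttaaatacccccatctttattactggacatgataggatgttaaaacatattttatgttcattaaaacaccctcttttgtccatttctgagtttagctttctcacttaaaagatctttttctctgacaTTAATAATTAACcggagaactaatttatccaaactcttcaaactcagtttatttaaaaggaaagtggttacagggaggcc
Gc: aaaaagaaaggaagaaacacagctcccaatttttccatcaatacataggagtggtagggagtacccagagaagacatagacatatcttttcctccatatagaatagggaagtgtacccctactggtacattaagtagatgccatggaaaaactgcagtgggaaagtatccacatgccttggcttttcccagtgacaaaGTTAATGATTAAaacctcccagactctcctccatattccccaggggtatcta
In Kng2 (chr16:23029102-23029351, minus strand), which encodes a kininogen, capitals mark the C/EBP letters TTGCNNAA on either strand.
Kng2: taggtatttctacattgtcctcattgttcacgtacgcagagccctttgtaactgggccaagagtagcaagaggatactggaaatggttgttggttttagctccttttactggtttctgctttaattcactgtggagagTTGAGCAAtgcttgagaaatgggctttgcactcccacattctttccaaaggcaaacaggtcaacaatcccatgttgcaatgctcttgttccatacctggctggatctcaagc
The HNF1 match began 80 bases before the start in Hc and 52 bases before it in Gc. Of the 38 rule, plasma protein and metabolism genes described below, 32 had a window of 300 bases in the RefSeq table, from 250 bases before to 50 bases after the start. Hc and Gc were the 2 of these with the HNF1 letters, or 6.25%, beside 3 of the 348 genes of the panel with a window, or 0.862%, and 20 of the 27025 genes in the whole table, or 0.0740%. The C/EBP letters were found for 8 of the 32 genes, which were C3, Cp, Dao, Hpx, Hrg, Kng2, Slc10a1 and Uox. That is 25% beside 12.6% of the genes of the panel and 12.2% of all genes in the table. The HNF4 letters CAAAGTCCA were found for Aadat alone among the 32, for 0.862% of the genes of the panel and for 0.555% of all genes. A match describes these letters in this window and is not a measurement of binding.

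The section held 20952143 gene transcripts with a median of 167 per cell, and the most abundant of 20 negative control probes gave 105 counts in all. Members held 5.31% of all transcripts and 32.2% of the transcripts of the rule genes. Transcripts of the rule genes were thus mostly counted outside the members, and 55.0% of all cells had none. The rule met few cells in the other sections on the same panel. It was met by 33 of 52594 cells in the bone marrow of postnatal day 8 (0.0627%), by 58 of 108338 in the untreated adult spleen (0.0535%) and by 343 of 94582 in the spleen after phenylhydrazine, which destroys red cells (0.363%). There Cp gave 96.5%, 93.7% and 99.2% of the rule counts of the cells concerned, against 5.05% in the fetal liver. In the spleens and the marrow the rule therefore picked cells by Cp, and in the liver by the other genes. The sections measured on the larger panel, E13.5 fetal liver and 89-week bone marrow, carried 3 of the 6 genes and were not used.

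The values in this paragraph chose the members and are given as a description. Hc gave 37.1% of their rule counts and was seen in 98.6% of them, with a mean of 4.12 counts per member. Serpina10 gave 22.7% and was seen in 91.4%, and Prox1 gave 18.6% and was seen in 86.6%. Ppargc1a was seen in 64.1%, Abcb11 in 50.2% and Cp in 32.7% of members. Most members combined several of the genes, with 4 of them present in 42.8% of members, 5 in 30.7% and all 6 in 7.09%. Only 1 member met the rule with a single gene. Just outside the threshold, the 1241 cells with 7 rule counts had a median of 199 transcripts, a median area of 56.1 µm² and 64 detected genes. Just inside it, the 1008 cells with 8 had 207 transcripts, 58.9 µm² and 65 genes, and they made up 23.0% of the members. The threshold thus ran through a continuous distribution, and no gap separated the members from the rest.

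**Figure D1:**
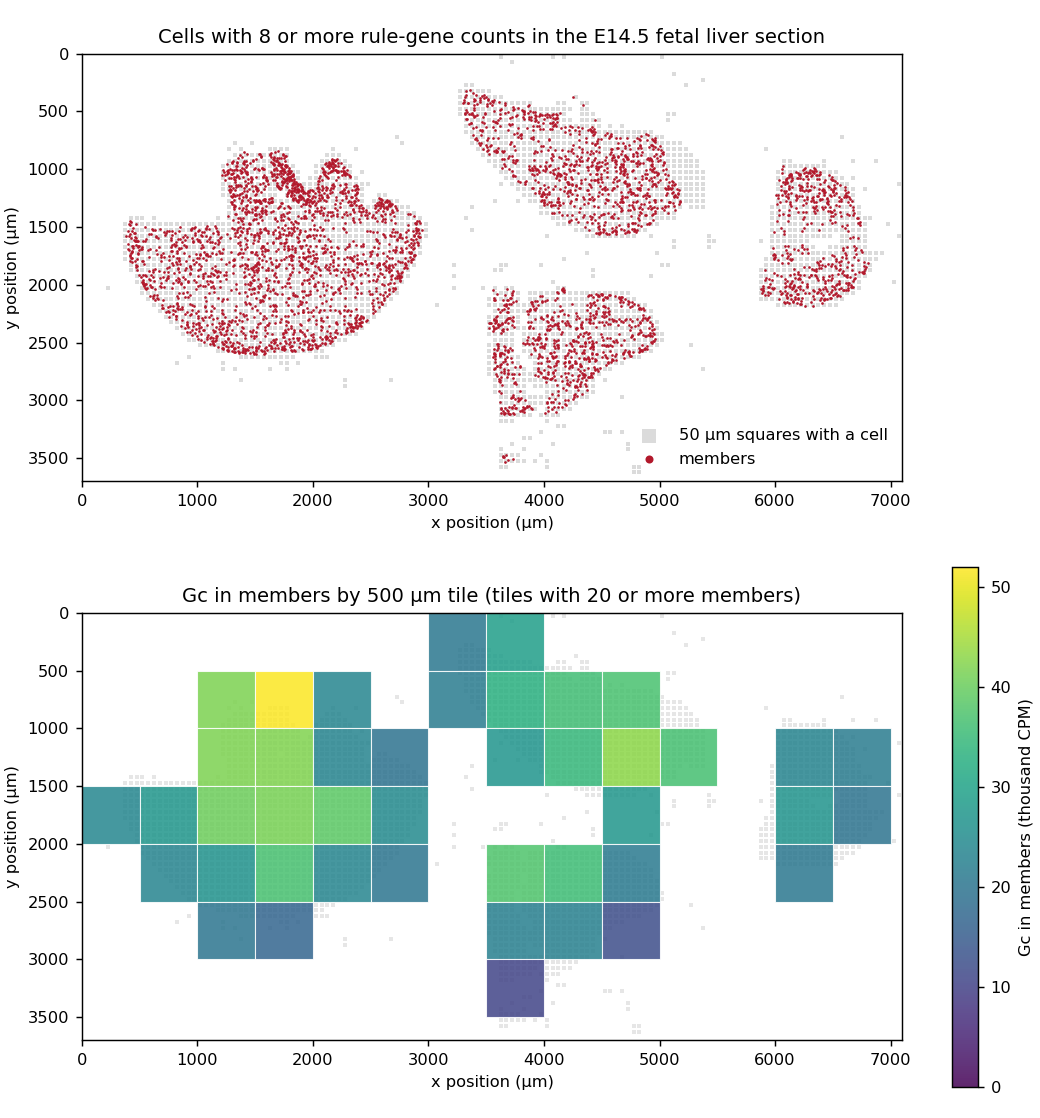
Top, positions of the 4384 members (red points) over the 50 µm squares that held a cell (gray), with x and y in µm. Bottom, Gc in members (color scale, CPM divided by 1000) per 500 µm tile with 20 or more members. Members were found in all 4 pieces of tissue, and Gc ranged from 10366 to 51766 CPM between tiles.

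Members were larger than the rest of the section. Their median cell area was 68.1 µm² (95% interval 67.4 to 69.0), against 47.3 µm² for other cells, a ratio of 1.44. This interval was taken from the ranked areas of the members, which are cells of 1 section and not replicates. The stained nucleus measured 39.2 µm² in members and 26.2 µm² in other cells, a ratio of 1.50. Cell outlines were expanded from the nucleus, so the larger nucleus enters the cell area. Members also held more transcripts, 240 (lowest 81, highest 785) against 165 per cell, and a rule on raw counts favors cells with many transcripts. Among cells between 194 and 297 transcripts, the range that holds the middle of the members, the area ratio was 1.10, with 67.8 µm² in 2213 members and 61.4 µm² in 31848 other cells, and the nucleus ratio was 1.14, with 39.7 and 34.9 µm². When cells were instead chosen by rule genes making up at least 5% of their transcripts, the ratio was 1.00. That rule chose 2257 cells, of which 1640 were members, so it compared a different set, and the part of depth in the area ratio was not tested. Per area, the median was 356 counts per 100 µm² in members and 357 in other cells, and in the matched range 358 and 383. Members expressed more kinds of genes, 70 against 50 per cell, and 47 against 41 when each cell was thinned to 100 transcripts, which left out 22 members and 18215 other cells.

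Genes of secreted plasma proteins that the rule did not use were higher in members. Levels are given as CPM, the counts of a gene summed over the cells and scaled to 1000000 counts of all genes, and ratios as log2 of members over other cells. Of the 472 genes with at least 100 counts in the section, 78 were at least 2-fold higher in members, which is 16.5%, and 155 were at least 2-fold lower, which is 32.8%. The 78 include the 6 rule genes, which chose the members, and 72 genes outside the rule. As mean counts per cell, where the higher depth of members enters, 118 were at least 2-fold higher, again with the rule genes, and 65 lower. Which direction held more genes thus turned with the scale. The median over all 472 genes was −0.37. The gene lists used here and below were drawn up with earlier results of these data known. Their counts beside the share over all genes are therefore a description. Among the 15 plasma protein genes, 14 were at least 2-fold higher and their median was 1.91. Together they made up 34.8% of the transcripts of members and 11.7% of those of other cells, a log2 ratio of 1.58. Igfbp1, which encodes a binding protein for insulin-like growth factors, was at 17562 CPM in members and 4053 CPM in other cells, a log2 ratio of 2.12 (2.09 to 2.14). Apoc4 and Apoc2, apolipoproteins of triglyceride-rich particles, had log2 ratios of 2.11 and 1.87. Gc was at 30379 against 7378 CPM, a log2 ratio of 2.04, and the heme-binding hemopexin, Hpx, at 21178 against 5119 CPM, a log2 ratio of 2.05. Kng2 reached 2.09, Serpinf1, which encodes pigment epithelium-derived factor, 2.06, and the complement gene C3 1.91. Ambp, the precursor of alpha-1-microglobulin and bikunin, was higher by 1.70. Hrg, the histidine-rich glycoprotein, and the protease inhibitor Serpina3n were rare, with 301 and 121 counts in members and log2 ratios of 1.91 and 1.63.

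The most abundant plasma protein genes had the smaller ratios. Trf, the iron carrier transferrin, was at 68676 CPM in members and 31294 CPM in other cells, a log2 ratio of 1.13, and was seen in 99.8% of members and 92.9% of other cells. Selenop, a selenium transport protein, was at 66302 against 29094 CPM, a log2 ratio of 1.19. The acute phase protein haptoglobin, Hp, was the exception below 2-fold, at 1456 against 784 CPM and a log2 ratio of 0.89, and was seen in 22.6% of members. The study counted Trf among its erythroid markers as well, and how much of its level in other cells was made there was not tested.

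Enzymes and transporters of hepatocyte metabolism separated the groups further as a sum. Gene by gene, their median ratio was close to the 1.91 of the plasma protein genes. Of 17 genes, 14 were at least 2-fold higher in members, 1 was at least 2-fold lower, and the median was 1.95. Their sum made up 7.69% of the transcripts of members and 1.85% of those of other cells, a log2 ratio of 2.05. Slc27a2, which activates and imports very long-chain fatty acids, was the most abundant at 34527 against 6713 CPM, a log2 ratio of 2.36, and 99.8% of members carried it. The transcript 0610005C13Rik had the highest ratio of the list, 2.76, with 80.4% of its counts in members over the nucleus. Gamt, which makes creatine from guanidinoacetate, was higher by 1.95, whereas Gatm, the enzyme that makes guanidinoacetate, was lower, at 585 against 1209 CPM and a log2 ratio of −1.05. Urate oxidase, Uox, had a ratio of 2.06 and the bile acid importer Slc10a1 2.09, the latter in 8.42% of members. Aadat, an aminotransferase of amino acid breakdown, was seen in 34.1% of members, with a log2 ratio of 2.08. Pck1, an enzyme of gluconeogenesis, was at 123 CPM and in 2.85% of members, and tyrosine aminotransferase, Tat, at 85.4 CPM and in 1.98%. Slc25a47 and Dao had log2 ratios of 0.29 and 0.69, and Dao rested on 42 counts in members.

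**Figure D2:**
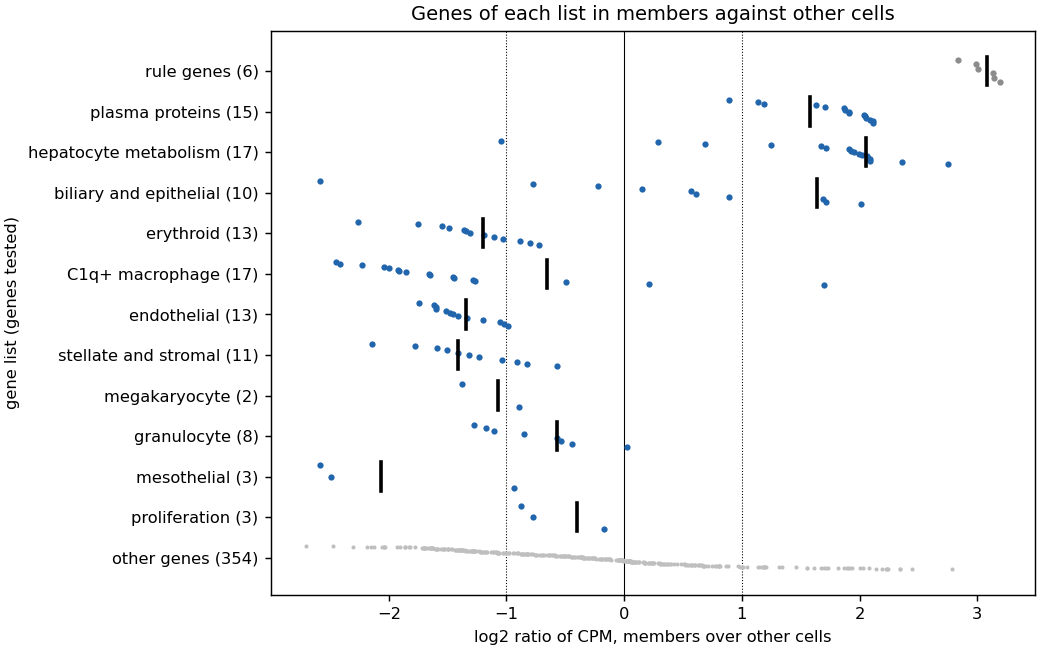
Each point is a gene with at least 100 counts, placed at its log2 ratio of CPM in members over other cells (x axis) in the row of its list, with the number of genes. Black bars mark the ratio of the summed list, dotted lines 2-fold, and the gray rule genes chose the members. Plasma protein and metabolism genes lay right of 0 except Gatm, and erythroid and endothelial genes lay left of 0.

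Among the biliary and epithelial genes, the simple epithelial keratin Krt8 and the proteoglycan Sdc1 were high in members and Krt19 was not. Krt8 was at 16741 against 5091 CPM, a log2 ratio of 1.72, in 95.5% of members, and Sdc1 had a ratio of 1.69. Krt19, the keratin of bile ducts and mesothelium, was at 42.3 against 253 CPM, a log2 ratio of −2.58, and occurred in 0.912% of members. Sox9, a transcription factor of biliary precursors, had a ratio of 2.01 and was seen in 5.77% of members. Epcam was at 66.5 against 114 CPM and was seen in 1.30% of members, and the claudins Cldn3, Cldn4 and Cldn7 had 11, 52 and 36 counts in all members. Of the 10 genes, 3 were at least 2-fold higher and 1 was at least 2-fold lower. A log2 ratio above 0 was found for 7 and below 0 for 3, with a median of 0.59. As a sum the list made up 2.45% of the transcripts of members and 0.790% of those of other cells, a log2 ratio of 1.64. Krt8 gave 18622 of its 27292 counts in members.

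Beyond these lists, the 8 genes with the highest ratios among those with at least 500 counts were Cxcl1 at 2.78, Saa3 at 2.45, Slc4a4 at 2.35, Slc22a8 at 2.34, Aqp7 at 2.25, Pcolce2 at 2.23, Vegfa at 2.23 and Tfcp2l1 at 2.19. Vegfa, the main growth factor of endothelium, was the abundant gene among them, at 15316 against 3276 CPM and in 95.7% of members. At 100 transcripts per cell, Vegfa was seen in 77.2% of members and 23.4% of other cells. The neutrophil-attracting chemokine Cxcl1 and the acute phase gene Saa3 were rare, in 5.86% and 11.1% of members. Slc4a4 and Slc22a8 encode transporters of bicarbonate and of organic anions, and Aqp7 a channel for water and glycerol. The 8 lowest were AU021092 at −2.71, Upk1b at −2.59, Krt19, Upk3b at −2.49, Nnat at −2.47, Marco at −2.45, C1qb at −2.42 and Slamf1 at −2.30. Upk1b, Upk3b and Krt19 mark mesothelium, and Marco and C1qb macrophages.

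Most marker lists of other cell types of fetal liver had lower sums in members, though their transcripts were not absent. The 13 erythroid genes made up 21.0% of the transcripts of members and 48.4% of those of other cells, a log2 ratio of −1.20, and 10 of them were at least 2-fold lower. Hbb-bt, a beta-globin, was at 41634 against 68645 CPM, the anion exchanger Slc4a1 at 26080 against 66191 CPM and the blood group protein gene Rhd at 3918 against 18805 CPM. Per cell, the erythroid share of counts ranged in members from 1.63% to 61.0% with a median of 20.6%, against a median of 52.9% in other cells. At least 20 counts of 7 erythroid genes were found in 38.0% of members and 71.9% of other cells, and in 35.3% and 87.9% at matched depth. The mark asks for raw counts, and members that met it had a median of 289 transcripts against 215 in the other members. Over the nucleus alone the erythroid log2 ratio was −1.34 and those of the plasma protein and metabolism genes were 1.85 and 2.47. The part of transcripts from overlying or adjacent cells in these values was not tested.

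Of the C1q+ macrophage genes, 14 of 17 were at least 2-fold lower, and C1qb was at 729 against 3895 CPM. The gene of the list at least 2-fold higher was Vcam1, an adhesion molecule that serves as a marker of island macrophages. It was at 7392 against 2275 CPM, a log2 ratio of 1.70 (1.67 to 1.73), and in 80.3% of members. When cells were thinned to 100 transcripts, 50.5% of members and 18.5% of other cells carried Vcam1, whereas C1qb was seen in 5.46% and 19.4%. The other 2 genes of the list lay within 2-fold, the iron exporter Slc40a1 with a log2 ratio of −0.50 and Cd163 with 0.21 (−0.43 to 0.80) on 25 counts in members. Endothelial genes were lower by 1.35 on the log2 scale as a sum, with 12 of 13 at least 2-fold lower, and the sum of stellate and stromal genes had a log2 ratio of −1.41. The megakaryocyte sum was at −1.07 and the mesothelial sum at −2.07. The granulocyte sum, at −0.57 with 3 of 8 genes at least 2-fold lower, and the sum of the proliferation genes Cenpf, Ube2c and Stmn1, at −0.40, lay near the median of all genes, −0.37. Stmn1 gave 22699 of the 32097 proliferation counts in members and had a log2 ratio of −0.17. Ube2c and Cenpf were lower, at −0.87 and −0.77, and at matched depth the proliferation sum was at −0.62. The granulocyte mark used below, 5 or more counts of 4 granule genes, was met by 6.02% of members and 5.09% of other cells, and by 5.78% and 6.31% at matched depth.

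The hepatocyte genes held together within cells. The hepatocyte share, defined as the 32 plasma protein and metabolism genes as a percentage of all transcripts of a cell outside the rule genes, had a median of 46.2% in members, with a lowest value of 13.3% and a highest of 66.9%. Other cells had a median of 10.7%, and no member lay below it. The 90th percentile of the section was 35.7%, and 87.2% of the 4384 members were above it. So were 7.004% of the 112945 other cells, and most cells above it were therefore not members. At the higher cut of the median of the members, 3358 other cells, or 2.86% of the section, reached it without meeting the rule. These cells had a median of 136 transcripts, 4 rule counts and an area of 41.5 µm², so that small cells with a like hepatocyte share were left outside the rule. Read by the number of rule counts, the plasma protein share went from 7.65% in cells without any to 29.3% at 5 to 7 counts and 36.2% at 16 to 34, and the erythroid share from 52.1% to 28.7% and 17.9%. Igfbp1 went from 2009 to 14224 and 18488 CPM, and Vcam1 from 1931 to 5485 and 8374 CPM. Cells at 5 to 7 counts were thus closer in profile to members than to cells without rule counts.

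**Figure D3:**
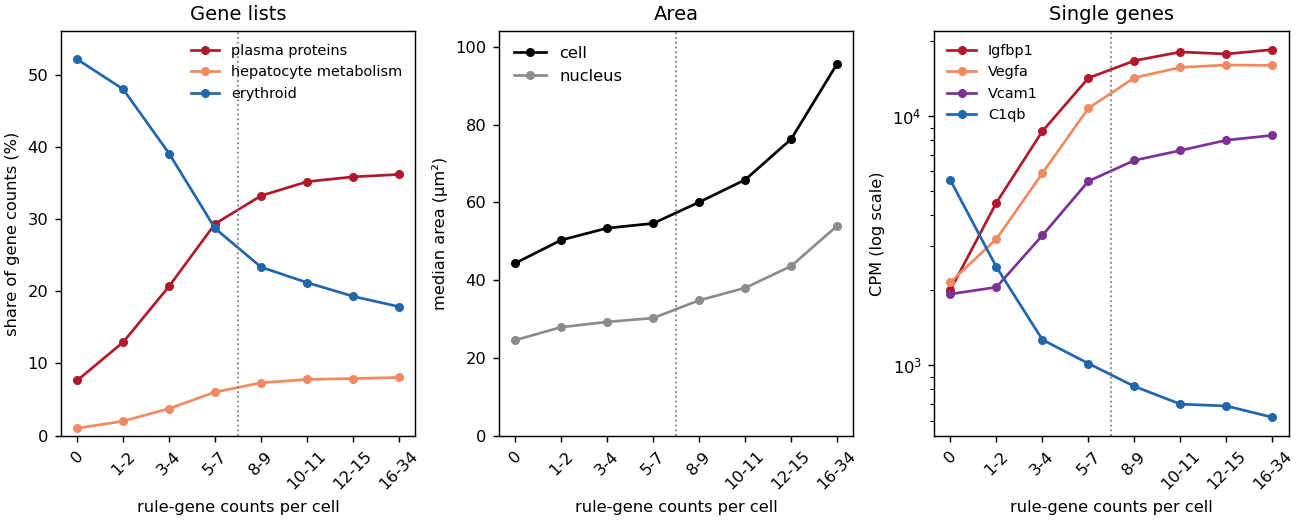
Cells of the section binned by rule-gene counts per cell (x axis), with the rule's threshold as a dotted line. Left, share of gene counts in 3 lists (%); middle, median cell and nucleus area (µm²); right, CPM of 4 genes on a log axis. The plasma protein share went from 7.65% to 36.2% and median cell area from 44.3 to 95.7 µm².

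Plasma protein and metabolism transcripts lay over the nucleus in members more often than in other cells. Plasma protein transcripts were over the nucleus in 57.0% of cases in members and 46.8% in other cells, and metabolism transcripts in 62.3% and 46.3%, while the values for all genes were 57.5% and 57.2%. Erythroid transcripts went the other way, with 56.4% in members and 61.7% in other cells. Vegfa was among the more nuclear transcripts, at 82.3% in members and 65.2% in other cells. The rule genes are a description only, since their counts chose the members and were below 8 in every other cell. Of their counts in members 73.5% were over the nucleus, with 78.8% for Hc, 77.4% for Ppargc1a, 73.7% for Prox1 and 65.1% for Serpina10, and of those in other cells 51.0%.

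Members lay near each other more often than other cells lay near members. Within 20 µm of its center a member had 22.0 ± 4.85 neighbors (SD over 4384 cells) and another cell 23.5 ± 5.53. Of the neighbors of members 5.12% were members (4948 of 96629), and of the neighbors of other cells 3.45%, a ratio of 1.49. That ratio was between 1.25 and 2.01 under the other thresholds, radii and rules tried. It was 1.56, 1.39, 1.45 and 1.24 within the 4 separate pieces of tissue. No other member was found within 20 µm of 34.8% of members. When members within 20 µm of each other were linked, 2424 groups resulted, of which 415 had at least 3 members and held 43.2% of all, and the largest held 51. The median distance to the nearest member was 16.1 µm. As counted by this threshold, members thus lay singly or in small groups, mostly of fewer than 10, among cells of which most were erythroid-rich. Cells below the threshold do not enter these groups, among them the 3358 other cells that reached the median hepatocyte share of members. The arrangement of all hepatocyte-like cells was therefore not described.

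Cells with at least 3 counts of Kit, the receptor of stem cell factor on blood progenitors, were also more frequent around members. They made up 8.19% of the neighbors of members and 5.55% of those of other cells, a ratio of 1.48. Around other cells 20 to 50 µm away from any member they made up 4.63%. The ratio was 1.44 when at least 2 Kit counts over the nucleus were asked for, an alternative chosen after seeing the data, and between 1.37 and 1.53 within the 4 pieces. Members themselves met the Kit mark in 5.70% of cases and other cells in 5.91%, and at matched depth in 3.39% and 9.98%. All marks ask for raw counts, and depth differed with distance from a member. Other cells had a median of 176 transcripts within 10 µm of a member and 152 at 50 to 100 µm. The part of depth in the neighbor ratios of the marks was not tested. Cells marked as granulocytic by at least 5 counts of Mpo, Elane, Ctsg and Fcnb, which encode granule proteins of early granulocytes, made up 5.90% against 5.06%, a ratio of 1.17. Endothelial cells made up 10.3% against 9.62%, and stellate cells 8.34% against 8.30%. Erythroid-rich cells made up 70.4% of the neighbors of members and 71.8% of those of other cells. C1q-high cells, in which C1qa, C1qb and C1qc summed to 5 or more, were less frequent, with 6.36% against 7.41%, and megakaryocytes made up 2.70% against 2.91%. Cells with the mesothelial mark were rare and had the lowest ratio of the marks, 0.74, with 0.316% against 0.429%. The mark was carried by 1.07% of other cells and 0.137% of members, so marked cells near each other enter the value around other cells. By distance the order was reversed, with a median of 162 µm to the nearest marked cell from members and 206 µm from other cells.

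**Figure D4:**
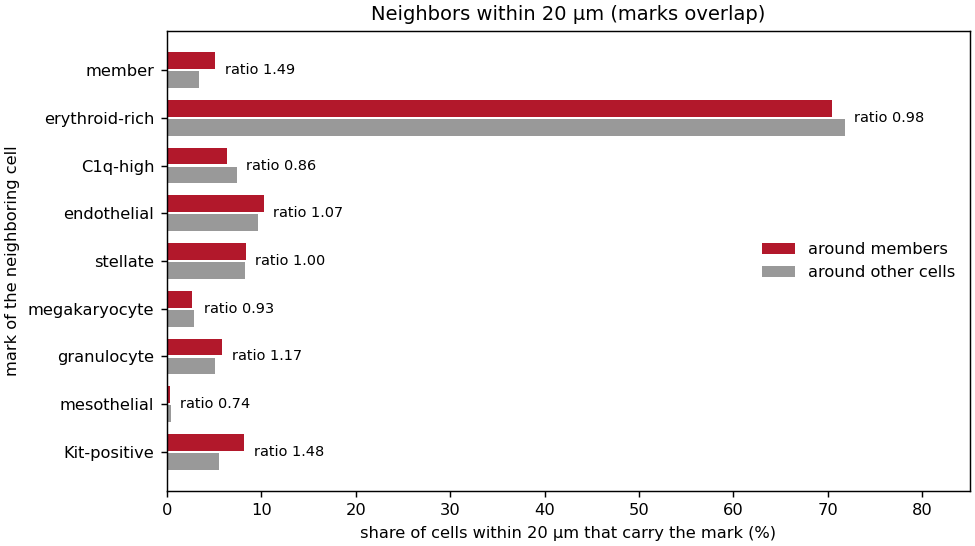
Share of cells within 20 µm that carry each mark (x axis, %), around members (red bars) and around other cells (gray bars), with their ratio. Marks are not exclusive. Members and Kit-positive cells had ratios of 1.49 and 1.48, and C1q-high and mesothelial cells ratios of 0.86 and 0.74.

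Other cells close to a member carried more hepatocyte transcripts. The plasma protein share was 14.96% in other cells within 10 µm of a member, 10.7% at 20 to 30 µm and 9.02% at 50 to 100 µm, and Igfbp1 was at 5702, 3569 and 2681 CPM over the same distances. Their mean rule counts, 1.35, 0.787 and 0.542, are a description only, since the rule keeps them below 8. Whether this came from transcripts of the member counted in its neighbor, or from cells below the threshold that lay in the same group, was not tested. In the 1030 cells farther than 100 µm from any member, plasma protein genes made up 3.59% and stellate and stromal genes 25.7% of transcripts, and erythroid genes 8.36%.

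Where members lay in the tissue went with both their number and their genes. The section showed 4 separate pieces of tissue, which held 99.3% of all cells, and the outline of each was traced from 50 µm squares with at least 5 cells. This view was chosen after the values per tile had been seen. Members made up 5.04% (4.77 to 5.31) of the cells up to 100 µm from the outline, 3.89% at 100 to 200 µm, 3.09% at 200 to 400 µm and 3.05% (2.80 to 3.33) farther in. The rule asks for raw counts, and the depth of all cells was not compared between these bands. Members near the outline were also larger, with a median area of 73.6 µm² against 63.9 µm² in the innermost band, at 246 and 235 transcripts. Kit in other cells followed the same order, at 3463 CPM in the outer and 2416 CPM in the inner band, and the ratio of Kit-positive neighbors stayed between 1.30 and 1.47 in all 4 bands.

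Several secreted proteins differed between outer and inner members. Gc was at 22746 CPM in members up to 100 µm from the outline, 29806 CPM in the next band, 35296 CPM in the third and 39947 CPM in the innermost. Hp was at 883, 945, 1974 and 2958 CPM over these bands. Car3, a carbonic anhydrase, was at 7195 CPM in the outer and 12295 CPM in the inner band, and Kng2 at 20261 and 28441 CPM. Trf went the other way, at 72901 and 62074 CPM. Summed over the section, Igfbp1 was between 17352 and 17761 CPM in all bands and Slc27a2 between 33962 and 35252 CPM. Within the 4 pieces Igfbp1 ran both ways, with log2 ratios of inner over outer members of −0.17, 0.32, −0.09 and 0.20, and its level in members was between 14749 and 21029 CPM. The rule genes are given as a description only, since members were chosen on their sum and a higher level of 1 of them trades off against the others. From the outer to the inner band Cp was at 1100 and 3722 CPM, Prox1 at 9201 and 6826 CPM, Ppargc1a at 4604 and 3413 CPM and Hc at 15933 and 16211 CPM. As a sum, plasma protein transcripts made up 33.4% of those of members in the outer and 36.0% in the inner band, so the mix moved more than the total.

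Of the 94 genes outside the rule with at least 1000 counts in members, 5 were at least 1.5-fold higher in the 1827 members over 200 µm from the outline than in the 1323 members within 100 µm, and 12 were at least 1.5-fold lower. The higher genes were Hp, Slc22a8, Gc, Ccl9 and Tnnc1, with log2 ratios of 1.34, 0.74, 0.68, 0.68 and 0.66. Of these, 4 had the same direction in each of the 4 pieces, and Hp was higher inside in 3 and lower in 1. Lower inside were Col1a1, Ldhb, Col1a2, Pcolce2, Maf, Bgn, Slc4a4, Calcrl, Oit3, Gsdmd, Cndp2 and Apoc4, all 12 with the same direction in each piece. Direction alone was compared, and some shifts were small in single pieces. The smallest log2 ratios were −0.05 for Gsdmd, −0.06 for Oit3 and, among the higher genes, 0.07 for Slc22a8. Ldhb, a lactate dehydrogenase subunit, was at 4798 CPM in the outer and 1213 CPM in the inner members, a log2 ratio of −1.98, and Pcolce2, an enhancer of procollagen processing, was at 4965 and 1853 CPM, a log2 ratio of −1.42. Stromal collagen genes were also more frequent near the outline in other cells, with a log2 ratio of −3.04 for Col1a1. All 5 higher and all 12 lower genes had the same direction in other cells. There Ldhb, Pcolce2, Apoc4 and Gc had ratios of −1.95, −1.44, −0.66 and 0.60. Those of Maf, Oit3 and Hp were smaller than in members, at −0.41, −0.27 and 0.39. The part of neighboring cells in the outer and inner values of members was not tested.

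**Figure D5:**
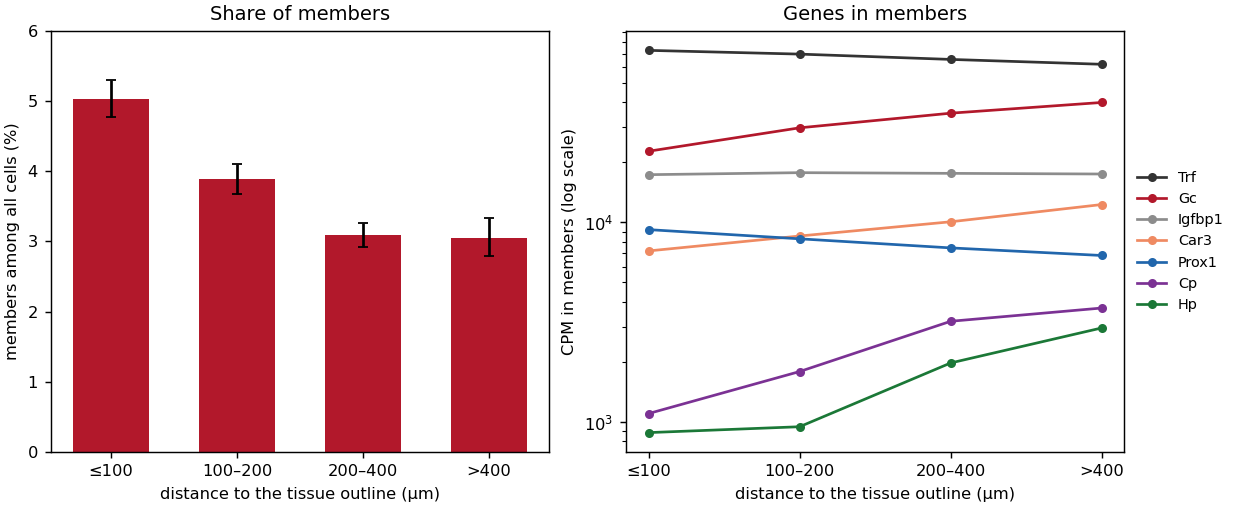
Left, members as a share of all cells (%) by distance to the tissue outline in µm, with exact binomial 95% intervals. Right, CPM of 7 genes in members on a log axis over the same bands, of which Prox1 and Cp are rule genes and a description only. Summed over the section, the share of members went from 5.04% to 3.05%, Gc from 22746 to 39947 CPM and Trf from 72901 to 62074 CPM.

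Over 500 µm tiles with at least 20 members, of which there were 43, members varied little in some genes and strongly in others. Slc27a2 differed 1.43-fold between its lowest and highest tile, Ambp 1.45-fold and C3 1.47-fold. Gc differed 4.99-fold, from 10366 to 51766 CPM, Car3 6.70-fold, from 2406 to 16121 CPM, and Igfbp1 2.45-fold. Cxcl10, an interferon-induced chemokine, differed 5.35-fold, from 1127 to 6029 CPM, and was seen in 27.9% of members. Outside the members these genes varied between the same tiles as well. In other cells Car3 ran from 759 to 4453 CPM, Cxcl10 from 328 to 1470 CPM and Igfbp1 from 2747 to 6103 CPM. In variance over mean between cells, corrected for depth so that counting alone gives 1, Cxcl10 reached 4.67 and Gc 2.90, beside a median of 1.38 for 100 genes. The granule genes Elane and Mpo were at 4.99 and 4.56 in members, where 10.9% and 23.2% of cells carried them.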

How the data were processed

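The authors deposited, for each section, transcript counts per gene and segmented cell without normalization, along with where each cell lay and how large it and its nucleus were. Per the file headers these were made by Xenium Onboard Analysis 1.7.1.0, whereas the methods of the study name Space Ranger. A deposited transcript table gives each decoded molecule a quality score and a mark for lying over a nucleus. Summing the molecules with a score of at least 20 in each cell gave back the deposited counts with a difference of 0, and 97.2% of such molecules lay in a cell. Cells were expanded nuclei, doublets were not called, and transcripts of neighboring cells were not removed. No cell was left out, and 6 cells had fewer than 5 genes. Of the cell identifiers, 3, 6 and 2 recurred in the P8 bone marrow, the untreated spleen and the spleen after PHZ (phenylhydrazine).

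Members, gene lists and marks were chosen with earlier results of these data known. Counts were summed over members and over other cells and scaled to 1000000 gene counts (CPM), and genes with at least 100 counts were compared. Named genes were the 6 rule genes, the plasma protein and metabolism genes, the 8 highest and 8 lowest others with at least 500 counts, and up to 3 abundant genes of each other list. Further genes, among them Epcam, the claudins, Rhd, Cxcl10 and those compared between outer and inner members, were named after their values were seen. Some genes of these lists are counted but not reported here by name. Exact binomial and Poisson intervals at 95% were used, and for the median cell area an interval from the ranked values of the cells. Neighbors were centers within 20 µm. Python 3.11.15, numpy 2.4.6, scipy 1.17.1 and pandas 2.3.3 were used. The ratio and interval code was tested on simulated data for 472 genes, where 95.1% of intervals held the true value. The simulated sums were Poisson, the counting model behind the intervals, so this checks the code alone. It does not cover the spread between cells beyond counting error, with a median variance over mean of 1.38 in members. Promoter windows were matched by symbol to RefSeq.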

Additional observations from a re-analysis of the deposited data

How the results depend on the processing

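The 3 log2 ratios kept their sign in 10 alternatives each, and the neighbor ratio stayed above 1 in 6, though all of these moved by more than their narrow counting intervals. The area ratio did not keep its size, since the cells chosen by the 5% rule had the same median area as the rest to within 1%. The numbers of genes at least 2-fold higher or lower were each within 1.5-fold in 10 of 11 alternatives. Rules of 5 and of 12 or more counts gave member shares of 7.75% and 1.27%, log2 ratios of 1.58 and 1.53 for plasma protein, 2.08 and 1.97 for metabolism and −1.01 and −1.34 for erythroid genes, area ratios of 1.30 and 1.69, member neighbors of 10.03% and 2.27%, and neighbor ratios of 1.39 and 2.01. A rule of 4 or more counts over the nucleus gave 6.23%, 1.62, 2.12, −1.12, 7.41% and 1.25 for share, the 3 log2 ratios, member neighbors and neighbor ratio. Without Ppargc1a the share was 3.09%. For plasma protein, metabolism and erythroid genes in turn, log2 ratios were 2.19, 2.90 and −1.31 against other cells without a rule count, 1.66, 2.16 and −1.26 at matched depth, 2.11, 2.58 and −0.67 as mean counts per cell, 1.63, 2.11 and −1.15 with totals without the rule genes, 1.53, 2.01 and −1.24 without Hbb-bt, 1.85, 2.47 and −1.34 over the nucleus, and 1.72, 2.26 and −1.26 against other cells 20 to 50 µm from a member, an alternative chosen after seeing the data. As mean counts per cell, 118 genes, the rule genes included, were at least 2-fold higher and 65 lower. The area ratio was 1.10 at matched depth, 1.00 when rule genes had to be 5% of counts, and 1.50 for nuclei, or 1.14 for nuclei at matched depth. Member neighbors were 5.33% within 15 µm, 4.82% within 30 µm and 2.67% under the 5% rule, with ratios of 1.60, 1.37 and 1.41. In the 4 quadrants of the section the plasma protein ratio was between 1.49 and 1.63.

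No paired analysis was possible because each condition had 1 section, and leaving out a replicate was not run for the same reason. Intervals cover counting error only, except that of the median cell area, which covers the spread over cells of this section. Genes with few counts in members, such as Dao, Ttc36 and the claudins, are limited by depth. A nucleus cut by the section plane, the expanded outline and transcripts of overlying cells all enter the counts of a cell, and their part was not tested.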

Other observations

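Values beyond the comparisons above are given here with no explanation. The hypoxia-linked gene Ndrg1 differed 2.26-fold between 500 µm tiles in members, from 3382 to 7644 CPM. The share of members among cells ranged from 1.22% to 9.88% over 48 tiles with at least 200 cells, with a median of 3.99%. The median depth of all cells in these tiles ran from 148 to 204 transcripts, and its part in the share was not tested. The third largest piece of tissue stood apart from the others in the genes of its members, with Car3 at 5157 CPM against 8306 to 10279 CPM in the others, Trf at 81478 against 64248 to 74966 CPM, and a median member area of 75.4 µm² against 65.9 to 68.0 µm². Car3 in the other cells of that piece was lower too, at 1358 against 2543 to 2931 CPM. Members nearest to another member lay 5.17 µm apart and the most isolated lay 107 µm from the next.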
